A study of Macaca mulatta with 10 samples.

Results

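Extracellular adenosine is a signal that restrains T cells, and 6 genes of its pathway were followed here in sorted Tr1 cells: ENTPD1, NT5E, ADORA2A, ADORA2B, ADA and DPP4. They were chosen by symbol, and all 6 were found among the 26484 rows of the deposited count table and among the 26381 rows of the FPKM table (fragments per kilobase of transcript, scaled to the mapped fragments of the library, a level corrected for gene length). Cells release ATP when they are stressed or activated. ENTPD1, the surface enzyme CD39, cuts ATP and ADP to AMP, and NT5E, the surface enzyme CD73, cuts AMP to adenosine. The receptors encoded by ADORA2A and ADORA2B raise cyclic AMP when they bind adenosine, which dampens T cell receptor signaling. ADA turns adenosine into inosine, and DPP4, the surface peptidase CD26 of activated and memory T cells, is the protein to which ADA binds on human T cells. Tr1 cells are IL-10-producing regulatory CD4+ T cells that do not depend on FOXP3, and CD39 and CD73 are among the proteins through which such cells are known to act.

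The 10 libraries came from 10 rhesus macaques (Macaca mulatta), 5 in Cohort B and 5 in Cohort C, each library from a different monkey. All of these monkeys were made diabetic with streptozotocin, received an islet allograft from a donor that shared a DRB allele, and were given the same short course of anti-CD40 antibody 2C10R4, rapamycin, tocilizumab and etanercept. Cohort B received no ADL infusion. Cohort C also received ADLs, apoptotic leukocytes of the islet donor fixed with ethylcarbodiimide, by vein before and after the graft. Blood mononuclear cells were taken at sacrifice, which the labels place at day 365 for the ADL arm and at rejection for the other arm, so that the infusion and the time and reason of sampling cannot be told apart. The study's own records depart from these labels for some monkeys of both cohorts, among them the animal of the deepest library, so the time and reason of sampling are uncertain for single animals. The ages of the monkeys were not used here. The cells were frozen, thawed, rested overnight and then sorted as CD4+CD49b+LAG3+, so every value is of blood cells after freezing and rest. In such bulk samples, fewer cells of a type and less RNA per cell cannot be told apart.

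Depth differed widely between the libraries. Total counts ran from 6076 to 1392157 in Cohort B and from 66485 to 5895609 in Cohort C, so the floor used here, the CPM (counts scaled to the library total) equal to 3 counts, was 2.15 to 494 CPM in Cohort B and 0.509 to 45.1 CPM in Cohort C. Only 4 libraries passed 1000000 counts, Cohort B monkeys 13EP12 and 13EP8 and Cohort C monkeys 13EP5 and 15CP1. These 4 held 87.1% of all counts and 1498 of the 1519 counts on the 6 genes. In them the 10 T cell marker genes summed to between 1321 and 1470 CPM, a narrow range. In monkey 14HP31 all 10 T cell markers were at 0. In monkeys 14HP26, 14HP31, 14HP33 and 15CP4 the 3 genes of the sort, CD4, ITGA2 (CD49b) and LAG3, were all at 0, so the sorted identity could not be seen in their counts. LAG3 had 10, 16 and 12 counts in monkeys 13EP12, 13EP5 and 15CP1 and 0 in the other 7 libraries, among them the deep library of 13EP8. In monkey 14HP33, 82.6% of counts lay on the gene MTRNR2L1. The number of pathway members with more than 3 counts was 2, 3, 4 and 4 in the deep libraries 13EP12, 13EP8, 13EP5 and 15CP1. It was 1 in monkeys 14HP26, 15CP6 and 14HP24 and 0 in monkeys 14HP31, 14HP33 and 15CP4.

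DPP4 had the most counts of the members, which does not rank the amounts of transcript because counts are not corrected for gene length. Its counts were 20, 183, 0, 0 and 10 in 13EP12, 13EP8, 14HP26, 14HP31 and 15CP6 of Cohort B. In Cohort C they were 134, 1, 4, 753 and 0 in monkeys 13EP5, 14HP33, 14HP24, 15CP1 and 15CP4. Both cohorts therefore held a library with high DPP4 and libraries with none. In CPM the level was 131 in 13EP8 (exact 95% Poisson interval 113 to 152; such intervals cover counting error only) and 128 in 15CP1 (119 to 137), the highest of each cohort. It was 40.1 CPM in 13EP5 (33.6 to 47.5), 29.2 in 14HP24 (7.96 to 74.8), 22.0 in 15CP6 (10.5 to 40.4) and 16.8 in 13EP12 (10.3 to 25.9). The intervals of 13EP8 and 15CP1 overlapped, and so did those of each neighbouring pair from 13EP5 down to 13EP12, while 15CP1 lay clear of 13EP5. Monkey 14HP33, at 1.03 CPM from 1 count, lay below all of these, on a total that is mostly MTRNR2L1.

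The spread of DPP4 inside a cohort was as wide as the whole range. In Cohort B the CPM of 13EP8 was 7.83 times that of 13EP12 (exact 95% interval of the ratio 4.92 to 13.1), and in Cohort C the CPM of 15CP1 was 3.18 times that of 13EP5 (2.65 to 3.86). These ratios compare libraries and not conditions. On the log2(CPM + 1) scale DPP4 was 3.14 ± 3.08 (SD, n = 5 monkeys) in Cohort B and 3.66 ± 3.00 (SD, n = 5) in Cohort C. The difference of 0.52 did not exceed this spread (two-sided exact permutation test, p = 0.738; the smallest p that 5 against 5 allows is 0.00794). In edgeR's quasi-likelihood test over 14168 genes, which models the counts themselves, the log2 fold change of Cohort C over Cohort B was 0.35 (SE, the standard error, 2.04, adjusted p = 1.0). Without Cohort C monkey 15CP1 it was -0.88.

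**Figure D1:**
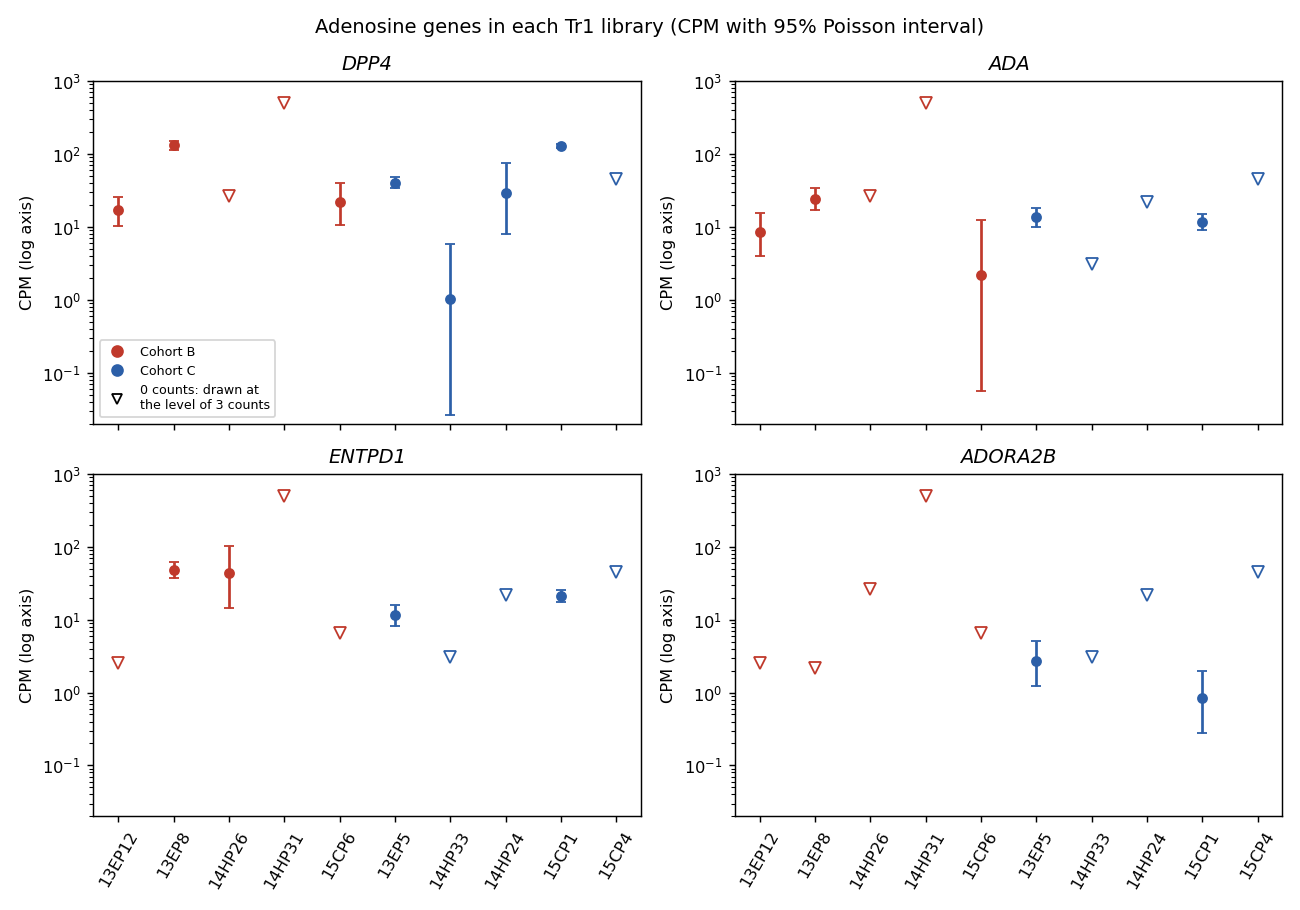
Level of DPP4, ADA, ENTPD1 and ADORA2B in each of the 10 Tr1 libraries, in CPM on a log axis, with exact 95% Poisson intervals as bars (red, Cohort B; blue, Cohort C). Open triangles mark libraries with 0 counts, drawn at the level that 3 counts would have there. DPP4 reached 131 CPM in Cohort B and 128 CPM in Cohort C, and ADORA2B had counts only in monkeys 13EP5 and 15CP1.

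ADA, the enzyme that removes adenosine, was seen mainly in the 4 deep libraries. It had 10 and 34 counts in 13EP12 and 13EP8 of Cohort B, 1 in 15CP6 and 0 in 14HP26 and 14HP31. In Cohort C it had 46 and 69 counts in monkeys 13EP5 and 15CP1 and 0 in the other 3. Of DPP4, ADA and ENTPD1, ADA had the narrowest range in these 4 libraries: 24.4 CPM in 13EP8 (16.9 to 34.1), 13.8 in 13EP5 (10.1 to 18.4), 11.7 in 15CP1 (9.11 to 14.8) and 8.40 in 13EP12 (4.03 to 15.4). Every neighbouring pair in this order had overlapping intervals, although 13EP8 was 2.91 times 13EP12 (1.41 to 6.60). The deep Cohort C libraries thus lay between the deep Cohort B libraries. On the log2(CPM + 1) scale ADA was 1.92 ± 2.04 (SD, n = 5) in Cohort B and 1.51 ± 2.07 (SD, n = 5) in Cohort C, a difference of -0.40 that was within the spread (two-sided exact permutation test, p = 0.762). The edgeR log2 fold change was -0.37 (SE 1.97, adjusted p = 1.0) and turned to 0.85 without Cohort B monkey 13EP8.

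The balance between DPP4 and ADA differed between the deep Cohort C monkeys by more than counting error. The deep Cohort B pair also had unequal shares, with intervals that overlapped only from 78.9 to 80.8%. Such an overlap does not show the shares to be equal, so no contrast between the cohorts follows. Of the counts on the 2 genes, DPP4 took 91.6% in 15CP1 (95% Wilson interval 89.5 to 93.3%) and 74.4% in 13EP5 (67.6 to 80.3%), both of Cohort C. In Cohort B it took 84.3% in 13EP8 (78.9 to 88.6%) and 66.7% in 13EP12 (48.8 to 80.8%). In the deep pair of each cohort the larger share was in the monkey with the higher DPP4 level, a level that enters the share itself. Outside these pairs, Cohort B monkey 15CP6 had DPP4 at 10 of 11 counts, or 90.9% (62.3 to 98.4%). Its DPP4 level was only 22.0 CPM. Counts are not corrected for gene length, so the share compares monkeys and not the amounts of the 2 transcripts.

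ENTPD1, the first enzyme of the route to adenosine, was seen in 4 libraries. In Cohort B it had 67 counts in monkey 13EP8 and 5 in 14HP26, and 0 in 13EP12, 14HP31 and 15CP6. In Cohort C it had 39 counts in 13EP5 and 125 in 15CP1, and 0 in the other 3 monkeys. The highest levels were in Cohort B, 48.1 CPM in 13EP8 (37.3 to 61.1) and 43.9 in 14HP26 (14.3 to 102), followed by 21.2 in 15CP1 (17.6 to 25.3) and 11.7 in 13EP5 (8.30 to 16) in Cohort C. The interval of 14HP26 overlapped those of 13EP8, 15CP1 and 13EP5, and that of 15CP1 lay above that of 13EP5.

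In some libraries ENTPD1 was at 0 although the median level of the libraries that showed it would have given more than 3 counts. At the median CPM of the libraries that showed it, monkey 13EP12 would have given 38.8 counts, 15CP6 14.8 and 14HP24 4.46. With TMM-scaled library sizes, an alternative added after the counts had been seen, these were 31.9, 12.5 and 4.79. That median leaves out the libraries at 0, so it lies above the level over all libraries. The zero of 14HP24 has an exact upper 95% limit of 26.9 CPM, above the levels of 15CP1 and 13EP5, so it is no evidence of a low level. For monkey 14HP33 the reckoning was 31.5 counts by its total, most of which is MTRNR2L1, and 1.94 by its TMM-scaled size, so its zero is no evidence of a low level. In 13EP12 the 0 counts on ENTPD1 have an exact upper 95% limit of 3.10 CPM, and the ratio of 13EP8 to 13EP12 has an exact lower 95% limit of 15.1, while the sum of T cell markers was alike in the 2 libraries, at 1740 and 1839 counts. Of the 22 zeros over DPP4, ADA, ENTPD1 and ADORA2B, 6 fell where more than 3 counts were reckoned by the total, and 4 of the 6 were of ENTPD1. By the TMM-scaled size there were again 6, with 4 of ENTPD1, but ADA in 14HP33 went from 12.3 to 1.01 reckoned counts and was no longer among them. An antisense gene, ENTPD1-AS1, had 56 counts in 13EP12, where ENTPD1 itself had 0, but 0 in 13EP8, 1 in 13EP5 and 4 in 15CP1. It was looked up after the counts had been seen. Whether the counting used strand is not given in the sources used here, so reads of the gene and its antisense partner cannot be told apart with certainty.

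On the log2(CPM + 1) scale ENTPD1 was 2.22 ± 3.04 (SD, n = 5) in Cohort B and 1.63 ± 2.25 (SD, n = 5) in Cohort C. The difference of -0.59 was within the spread (two-sided exact permutation test, p = 0.683). The edgeR log2 fold change was -1.02 (SE 2.06, adjusted p = 1.0). Without Cohort B monkey 13EP8 it was 1.23.

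NT5E, which makes the adenosine itself, was practically not seen. Its 3 counts all came from the deepest library, 15CP1, and it was listed at 0 FPKM in all 10. Pooled over the 10 libraries this is 0.221 CPM, with an upper 95% limit of 0.646 CPM. In Cohort B, 0 counts over the 5 libraries have an upper 95% limit of 1.17 CPM. A cohort difference in NT5E was not detectable at this depth.

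The receptor genes were near or below the limit of the counts. ADORA2B had 9 counts in 13EP5 and 5 in 15CP1, both of Cohort C, and 0 in the other 8 libraries. Its level was 2.69 CPM in 13EP5 (1.23 to 5.11) and 0.848 CPM in 15CP1 (0.275 to 1.98), with overlapping intervals. Over the pooled counts Cohort C was at 1.34 CPM (0.735 to 2.26), and the 0 counts of Cohort B have an exact upper 95% limit of 1.17 CPM, which overlaps that interval. The median level of the 2 libraries that showed ADORA2B would have given 2.11 counts in 13EP12 and 2.47 in 13EP8, each under 3 counts. Summed over the 5 Cohort B libraries it would have given 5.59, where 0 were seen. That median is of Cohort C libraries only and leaves out the Cohort C libraries at 0, so the sum cannot decide whether the cohorts differed. On the log2(CPM + 1) scale ADORA2B was 0 in all Cohort B libraries and 0.55 ± 0.84 (SD, n = 5) in Cohort C (two-sided exact permutation test, p = 0.444). The unadjusted p of edgeR's quasi-likelihood fit was 0.0398 and the adjusted p 0.215, with a fitted log2 fold change of 3.56 (SE 1.73), a size that rests on the prior count because Cohort B held no read. DESeq2 gave an unadjusted p of 0.591 from the same counts.

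No member differed between the cohorts beyond the spread between monkeys. Of the 6 genes, 4 had the 10 summed counts needed for the test, and NT5E and ADORA2A did not. At an adjusted p under 0.05, 0 of the 4 were called by edgeR's quasi-likelihood test, against a background of 0% of the 14168 genes tested. At the unadjusted p under 0.01 and 1.5-fold change that the study's methods use, it called 0 of the 4, where 6.43% of all genes passed. At an unadjusted p under 0.05 it called 1 of the 4, ADORA2B, where 20.6% of all genes passed. DESeq2 called 0 at an adjusted p under 0.05 and 0 at an unadjusted p under 0.05. DPP4 and ADORA2B had a positive fold change and ENTPD1 and ADA a negative one, and the median over the 4 was -0.01, beside 0.16 over all genes tested. Adjusted over all genes tested, the exact permutation p was 1.0 for each of the 4. The standard errors of 1.73 to 2.06 on the log2 scale are wider than the 3 smaller of these fold changes.

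**Figure D2:**
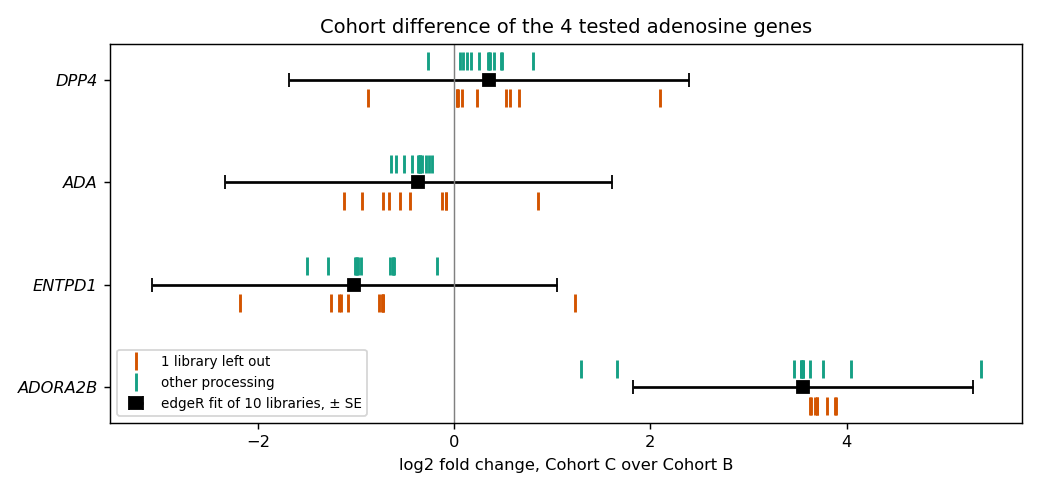
log2 fold change of Cohort C over Cohort B for the 4 members with enough counts. Black squares are edgeR's quasi-likelihood fit of all 10 libraries with its standard error, orange marks are the fits that each left out 1 library, and green marks are the other processing alternatives. The marks of DPP4, ADA and ENTPD1 fall on both sides of 0. Those of ADORA2B lie between 1.29 and 5.37, from libraries of which Cohort B had no count.

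When only the 4 libraries over 1000000 counts were kept, a restriction chosen after the counts had been seen, 0 members were called at an adjusted p under 0.05. In these libraries the difference of mean log2(CPM + 1) was 0.58 for DPP4, -0.17 for ADA, 1.39 for ADORA2B and 1.26 for ENTPD1, the last with a changed sign. The edgeR log2 fold changes in the same libraries were 0.13, -0.43, 5.37 and -0.62 in that order, so the sign of ENTPD1 differed between the 2 scales. With 2 libraries per cohort the exact permutation test cannot go below p = 0.333.

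The levels were also set against the T cell genes of the same library, whose narrow range in the 4 deep libraries leaves little room for the order to change. Per 1000 counts on the 10 T cell markers, DPP4 had 11.5 counts in 13EP12 and 99.5 in 13EP8, and 29.4 in 13EP5 and 86.9 in 15CP1. ADA had 5.75 and 18.5 in the Cohort B pair and 10.1 and 7.96 in the Cohort C pair. ENTPD1 had 0 and 36.4 in the former and 8.55 and 14.4 in the latter, in the same order. In all 3 genes both Cohort C values lay inside the range of the Cohort B pair.

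**Figure D3:**
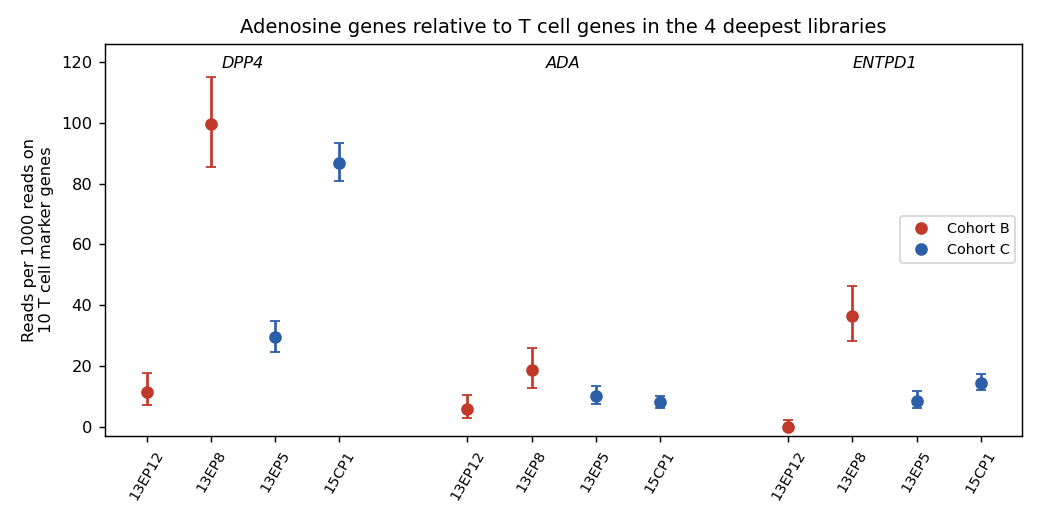
Counts of DPP4, ADA and ENTPD1 per 1000 counts on 10 T cell marker genes in the 4 libraries with over 1000000 counts (red, Cohort B; blue, Cohort C). Bars are exact 95% Poisson intervals of the gene's own count. Monkeys 13EP8 and 15CP1 stand high for DPP4, at 99.5 and 86.9, and monkey 13EP12 lies at 0 for ENTPD1.

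RNA of other blood cells was present in the same libraries. The 8 monocyte markers, led by LYZ and CD163 in summed CPM, summed to 315 and 415 CPM in 13EP12 and 13EP8 and to 117 and 395 CPM in 13EP5 and 15CP1. Of the deep pair of each cohort, the library with the higher DPP4 and ENTPD1 also had the higher monocyte sum. The highest monocyte sum of all libraries, 511 CPM, was in 14HP24 of Cohort C. There DPP4 was at 29.2 CPM, and ENTPD1 had 0 counts at a floor of 21.9 CPM. The monocyte sum ran from 0 to 578 counts in Cohort B, with all 8 markers at 0 in 14HP26 and 14HP31, and from 0 to 2327 counts in Cohort C, with all 8 at 0 in 15CP4. Monkey 14HP26 had 5 counts of ENTPD1 with no monocyte marker count. The 8 B cell markers ran from 1 to 121 counts in Cohort B and from 0 to 435 in Cohort C. They were 54.6 and 86.9 CPM in 13EP12 and 13EP8 and 83.8 and 73.8 CPM in 13EP5 and 15CP1. The 8 CD8 and NK cell markers ran from 0 to 258 counts and from 0 to 455 counts, the 6 platelet markers from 0 to 26 and from 0 to 900, and the 7 erythroid markers from 0 to 192 and from 0 to 93. The 4 FOXP3 Treg markers ran from 0 to 300 counts in Cohort B and from 0 to 1362 in Cohort C. These counts are not scaled for depth. In CPM the CD8 and NK cell markers were 217 and 97.0 in 13EP12 and 13EP8 and 32.3 and 77.2 in 13EP5 and 15CP1. In the same order the Treg markers were 170, 215, 202 and 231 CPM, and the platelet markers 21.8, 5.75, 269 and 4.07 CPM. The part of these cells in the levels of the adenosine genes was not tested.

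The length-corrected FPKM values gave a different picture for ADORA2A. In the counts it had 1 read in all, in monkey 15CP1. In FPKM it was 9.68 and 16.9 in 13EP12 and 13EP8 of Cohort B and at 0 to any printed digit in the other 8 libraries. The annotation to which the reads were assigned also holds a read-through gene, SPECC1L-ADORA2A, that shares sequence with ADORA2A. The read-through gene had FPKM values of 21.2 in 13EP8, 113 in 13EP5 and 38.7 in 15CP1, and was listed at 0 in the other 7. In the counts it had 2 reads, both in 14HP24, where its FPKM was 0. The upstream gene SPECC1L had 9 and 11 counts in 13EP12 and 13EP8 and 31 and 33 in 13EP5 and 15CP1. The antisense gene ADORA2A-AS1 had 11, 35 and 16 counts in 13EP8, 13EP5 and 15CP1. These 3 neighbouring symbols were added after the values had been seen.

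**Figure D4:**
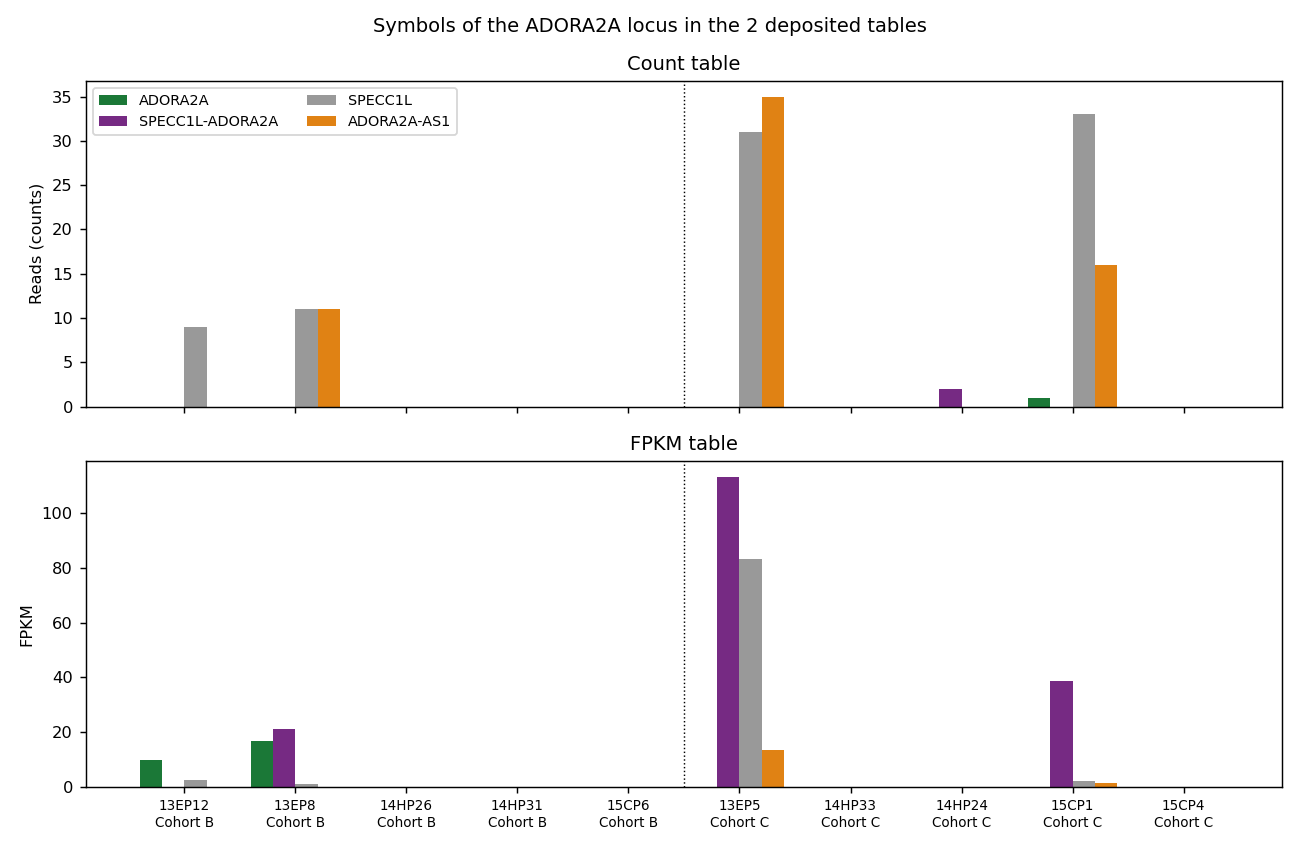
Counts (top) and FPKM (bottom) of ADORA2A, the read-through gene SPECC1L-ADORA2A, SPECC1L and ADORA2A-AS1 in each library, both on linear axes, with Cohort B left of the dotted line and Cohort C right. ADORA2A reached 16.9 FPKM in monkey 13EP8 without a read in the counts, and SPECC1L-ADORA2A reached 113 FPKM in 13EP5, again without a read in the counts.

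The 2 tables disagreed in both directions. Over 26376 genes found in both tables, 571 of 203740 values at 0 counts had an FPKM of at least 1, or 0.28%. Among the 119 genes that form the second part of a read-through symbol it was 93 of 1070 values, or 8.69%, so the share was higher there although most of the 571 lay elsewhere. In the other direction, 9403 of 44222 values with at least 10 counts, or 21.3%, had an FPKM under 1. The level of ADORA2A in these cells is therefore uncertain, and the cohort in which any of it was seen differed between the 2 tables. The cause of the disagreement was not tested. The limma test of log2(FPKM + 1) gave a difference of -1.52 for ADORA2A (SE 1.20, adjusted p = 0.992), with 1.52 ± 2.09 (SD, n = 5) in Cohort B and 0 in Cohort C.

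For the other members the 2 kinds of value differed in size, and counts of 1 to 5 often stood beside an FPKM of 0. This held for DPP4 in 14HP33 and 14HP24, ADA in 15CP6, and ADORA2B and NT5E in 15CP1. DPP4 had FPKM values of 1.99, 49.7 and 1.4 in 13EP12, 13EP8 and 15CP6 of Cohort B, and of 66.7 and 29.8 in 13EP5 and 15CP1 of Cohort C. By counts 15CP1 was above 13EP5, and by FPKM it was below. ADA had 8.96 and 15.2 FPKM in 13EP12 and 13EP8, 94.8 in 13EP5 and 2.52 in 15CP1. Its level in 13EP5 and 15CP1 was thus nearly equal by CPM and far apart by FPKM. ENTPD1 had 1.36 and 1.88 FPKM in 13EP8 and 14HP26 and 5.39 and 0.751 in 13EP5 and 15CP1, and ADORA2B had 3.78 FPKM in 13EP5 alone. Averaged over the 10 libraries, the order of the members by FPKM was DPP4 at 15.0, ADA at 12.1, ADORA2A at 2.65, ENTPD1 at 0.938, ADORA2B at 0.378 and NT5E at 0. The spread over libraries was as large as these means, and DPP4 and ADA changed places between monkeys: the FPKM of DPP4 was 11.8 times that of ADA in 15CP1 and 0.222 times in 13EP12. The limma test, run on 10307 genes whose mean FPKM was 1 or more, gave a difference of 0.50 for DPP4 (SE 1.58, adjusted p = 0.992) and of 0.21 for ADA (SE 1.5, adjusted p = 0.994). At an adjusted p under 0.05 and over 1.4-fold it called 0 of the 3 members tested, against 0% of all genes, with 29 genes of the table at an unadjusted p under 0.05.

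None of the genes in the 5 lists below, which surround the members in the pathway, passed an adjusted p of 0.05 with edgeR, as was the case for all genes. At an unadjusted p under 0.05 there were 1, 4, 2, 2 and 1 in the order of the lists, beside 20.6% of all genes. Among 12 other adenosine receptors and surface enzymes that act on nucleotides or adenosine, 7 were tested, 4 with a positive and 3 with a negative fold change, and the median log2 fold change was 0.04. CECR1, the secreted adenosine deaminase ADA2 of myeloid cells, had 14, 24 and 261 counts in 13EP12, 13EP8 and 15CP6 of Cohort B and 479, 23 and 66 in 13EP5, 14HP33 and 15CP1 of Cohort C. Its log2 fold change was -0.34 (SE 1.98). CD38, a surface enzyme that consumes NAD, had 104 and 49 counts in 13EP12 and 13EP8 and 270, 1 and 178 in 13EP5, 14HP33 and 15CP1 (log2 fold change 0.04). ALPL, an alkaline phosphatase, passed the unadjusted p under 0.01 with 1.5-fold change, as did 6.43% of all genes. Its log2 fold change was -7.65 (adjusted p = 0.141, edgeR), and all of its 18 counts came from Cohort B monkey 14HP26.

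Of 7 nucleoside transporters, the proteins that carry adenosine across membranes, 6 were tested, 2 positive and 4 negative, with a median log2 fold change of -1.02. The unadjusted p was under 0.05 for 4 of the 6, beside 20.6% of all genes, namely SLC29A3 and SLC29A4 with positive and SLC28A2 and SLC28A3 with negative fold changes. SLC29A3, a transporter of lysosomes, had 16, 6 and 21 counts in 13EP5, 14HP24 and 15CP1 of Cohort C and 0 elsewhere (log2 fold change 6.37, adjusted p = 0.141, edgeR). SLC28A3, which concentrates nucleosides in cells, had 67 and 32 counts in 13EP8 and 15CP6 of Cohort B and 12 in 15CP1 (log2 fold change -4.86, adjusted p = 0.240, edgeR). Of the 17 counts of SLC28A2, a transporter of the same family, 16 came from monkey 14HP26. SLC29A4 was named after its value had been seen.

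Inside the cell, adenosine and AMP enzymes were better covered, with 17 of 21 tested, 6 positive and 11 negative, and a median log2 fold change of -0.80. The unadjusted p was under 0.05 for 2 of the 17, beside 20.6% of all genes. AMPD2, an AMP deaminase, had 51, 24, 8 and 7 counts in 13EP12, 13EP8, 14HP31 and 15CP6 of Cohort B and 181 and 292 in 13EP5 and 15CP1 of Cohort C (log2 fold change -1.61, adjusted p = 0.960, edgeR). The 8 counts of AMPD2 in 14HP31, a library of 6076 counts, equal 1317 CPM, where its CPM summed over all libraries was 1496. NT5C2, a cytosolic nucleotidase, had 161, 128 and 19 counts in 13EP12, 13EP8 and 15CP6 and 498, 26 and 1078 in 13EP5, 14HP24 and 15CP1 (log2 fold change 0.88). AMPD3, another AMP deaminase, had 78 of its counts in 14HP26 and 18, 1 and 47 in 13EP8, 13EP5 and 15CP1 (log2 fold change -5.13, adjusted p = 0.202, edgeR). The other gene under 0.05 was AK1, an adenylate kinase, with a log2 fold change of 3.52, named after its value had been seen.

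Upstream of the members, 7 of 13 genes of ATP release and ATP sensing were tested, 3 positive and 4 negative, with a median log2 fold change of -0.02 and 2 of the 7 at an unadjusted p under 0.05, beside 20.6% of all genes. PANX1, the channel through which T cells release ATP, had 45 and 101 counts in 13EP12 and 13EP8 and 224, 2 and 172 in 13EP5, 14HP24 and 15CP1 (log2 fold change -0.02). P2RY2, a receptor for ATP and UTP, passed the unadjusted p under 0.01 with 1.5-fold change, as did 6.43% of all genes. It had 7, 17 and 9 counts in 13EP5, 14HP24 and 15CP1 of Cohort C and 0 elsewhere (log2 fold change 7.56, adjusted p = 0.141, edgeR). P2RX1, an ATP-gated channel, had 14 counts in 14HP26 and 4 in 13EP5 (log2 fold change -5.00, adjusted p = 0.226, edgeR).

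Downstream, all 24 genes of cyclic AMP signaling were tested, 15 positive and 9 negative, and their median log2 fold change of 0.14 was close to that of all genes, 0.16. The anchoring proteins AKAP13 and AKAP9, which hold protein kinase A in place, had log2 fold changes of 0.14 (SE 1.82) and 0.21 (SE 1.86). GNAS, the G protein subunit that couples both receptors to adenylate cyclase, had 532, 520, 99 and 36 counts in 13EP12, 13EP8, 14HP26 and 15CP6 of Cohort B. In Cohort C it had 4344, 55, 41 and 3185 counts in 13EP5, 14HP33, 14HP24 and 15CP1 (log2 fold change 0.99, adjusted p = 1.0, edgeR). GNAS was thus seen in 8 of the 10 libraries, where ADORA2B was seen in 2 and ADORA2A in 1. ADCY6, an adenylate cyclase, was the 1 gene of the 24 at an unadjusted p under 0.05, beside 20.6% of all genes, with 4 and 18 counts in 13EP5 and 14HP24 (log2 fold change 7.60, adjusted p = 0.141, edgeR).

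The genes whose levels followed those of a member most closely were sought among the 9685 genes with more than 3 counts in at least 3 libraries, by Pearson's r of log2(CPM + 1) over the 10 libraries. For DPP4 they were S100A11 (r = 0.991), TWISTNB (0.991) and CYTIP (0.981). S100A11 had 24, 136 and 10 counts in 13EP12, 13EP8 and 15CP6 and 170, 4 and 592 in 13EP5, 14HP24 and 15CP1. For ADA they were TANGO6 (0.998), NSFL1C (0.998) and NLK (0.992), and for ENTPD1 they were PAFAH1B3 (0.999), EVA1C (0.996) and MRPL41 (0.993). Each point shares its depth and its zeros with all genes of that library, and likeness was common: 1810 genes had an r over 0.9 with ADA, 620 with DPP4 and 104 with ENTPD1. The median r over all genes compared was 0.741 for ADA, 0.699 for DPP4 and 0.377 for ENTPD1. ENTPD1 was thus the least like other genes of the 3, with its zero in the deep library of 13EP12 and its counts in the shallow one of 14HP26.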

How the data were processed

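Tr1 cells of 10 monkeys were sequenced as paired reads of 50 bp from stranded Clontech Pico Mammalian libraries. Per the labels, the authors used HISAT2 2.0.2 and the human build hg38 for these macaque reads, so genes that differ most from human can lose reads. The authors deposited raw read counts per gene and, separately, FPKM values from Cuffdiff 2.2.1. The counter's handling of strand and overlapping genes is not given in the sources used here. Samples were grouped by the treatment label. Counts of genes with at least 10 in all were compared with edgeR 4.0.16 (TMM, quasi-likelihood, Benjamini-Hochberg over 14168 genes). CPM (pseudocount 1) was compared by exact permutation over all 252 assignments. FPKM was compared with limma 3.58.1 on log2(FPKM + 1). DESeq2 1.42.0 was an alternative. The floor was 3 counts. In the counts, 2 symbols occur more than once, neither of them a member. The tests were run first on simulated data. The simulated counts varied less between libraries than these do, and the simulated log-scale values held no zeros. That run therefore does not show how the tests behave on data like these. No genome of the files' build was used here, so no coordinates or sequences are given.

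The members and the pathway and marker lists were chosen with earlier results of these data known. Named genes are all 6 members, of each pathway list the 3 with the largest summed CPM and every one called, and for each member seen in at least 3 libraries the 3 genes most like it. Replicate numbers of the labels name different monkeys and do not pair them. An index suffix carried by 1 Cohort B name and 2 Cohort C names was tried as a covariate, as were other scalings, filters, tools and sets of libraries.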

Additional observations from a re-analysis of the deposited data

Results flagged for a closer look

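Among 17 groups of 5 libraries examined for the 6 genes, 5 held a library far from the others. The usual chance rate of about 1 in 20 does not hold here. Many values are 0, and the CPM and FPKM of a gene are not independent. Monkey 15CP1 stood apart in Cohort C for NT5E, at a log2(CPM + 1) of 0.593 from 3 counts, and for ADORA2A, at 0.226 from 1 count. Monkey 13EP5 stood apart in Cohort C for ADORA2B in FPKM, at a log2(FPKM + 1) of 2.26. In these 3 cases the other 4 libraries were at 0, where a single value above 0 always stands apart. Monkey 13EP5 also stood apart in Cohort C for ADA, at a log2(FPKM + 1) of 6.58, with a gap of 0.724 of the range. In that group 3 of the other 4 libraries were at 0. The ADA level of 13EP5 in CPM, 13.8, was close to the 11.7 of 15CP1. Monkey 13EP8 stood apart in Cohort B for DPP4, at a log2(FPKM + 1) of 5.66, with a gap of 0.721 of the range and 2 of the other 4 libraries at 0.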

How the results depend on the processing

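No alternative called a member at an adjusted p under 0.05 or at an unadjusted p under 0.01 with 1.5-fold change. The directions of DPP4, ADA and ENTPD1 were not stable. With the index suffix as a covariate the log2 fold change of DPP4 was -0.27. With 1 library left out it ran from -0.88 to 2.09 for DPP4 (negative without 15CP1), from -1.12 to 0.85 for ADA and from -2.18 to 1.23 for ENTPD1 (both positive without 13EP8), and from 3.63 to 3.89 for ADORA2B. The difference of mean log2(CPM + 1) then ran from -0.32 to 1.49 for DPP4 (negative without 14HP26, 14HP31 or 15CP1), from -1.0 to 0.28 for ADA (positive without 13EP8) and from -1.31 to 0.26 for ENTPD1 (positive without 13EP8 or 14HP26), and for ENTPD1 it was 1.26 in the 4 libraries over 1000000 counts. That of log2(FPKM + 1) ran from -1.01 to 0.85 for ADA (negative without 14HP26, 14HP31, 15CP6 or 13EP5) and from -0.47 to 1.49 for DPP4 (negative without 13EP5 or 15CP1). ADORA2B stayed positive, as it had to, since all of its counts came from Cohort C, so its sign is no sign of stability. Its adjusted p was 0.141 to 1.0 over its alternatives. ADORA2B gave no value in 3 of them, among them those without 13EP5 or 15CP1. ENTPD1 and ADA gave none in 1 each, since too few counts were left.

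Over all genes, those at an unadjusted p under 0.01 with 1.5-fold change fell from 911 to 563 with DESeq2 size factors, 10 with filterByExpr, 22 with DESeq2, 67 with limma-voom, 341 with the exact test of edgeR, 98 with the index suffix, 326 in libraries over 100000 counts, 117 in libraries over 1000000 counts, and 76 to 698 with 1 library left out. At an adjusted p under 0.05 they were 0, but 2 with DESeq2, 1 in each of the depth-restricted sets, and 0 to 1 with 1 library left out. The causes were not tested. With the replicate number as a block, 0 genes passed the unadjusted filter, and the log2 fold changes were 0.80 for DPP4, -0.64 for ADA, -0.63 for ENTPD1 and 3.47 for ADORA2B. The numbers do not pair the monkeys: same-numbered samples had correlations of deviations from -0.416 to 0.385.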
